A study of Mus musculus with 2 samples.

Results

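The troponin genes of the mouse were examined in 5′RNA-seq of whole hearts, an assay in which intact polyA RNA is sequenced without fragmentation so that reads collect near the start of each transcript. The 8 genes Tnnt1, Tnnt2, Tnnt3, Tnni1, Tnni2, Tnni3, Tnnc1 and Tnnc2 were taken by symbol from a table of 30385 entries, and each symbol matched 1 entry. There were 2 libraries, 1 from wild-type (WT) hearts and 1 from MHC403/+ hearts (MHC403), whose mice carry a missense mutation of human hypertrophic cardiomyopathy on 1 allele of the myosin heavy chain. All mice were of strain 129/SvEv, were aged 8 to 16 weeks and were given CsA (cyclosporine A, which inhibits calcineurin) at 15 mg/kg in 2 subcutaneous injections daily for 2 weeks, the WT controls included. Replicate animals had been pooled into 1 library per genotype, and the sources used here do not say how many animals a pool held. No difference below therefore has a replicate check or a test, and the ranges after values are 95% counting intervals, which leave out amplification and variation between animals.

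Troponin is the calcium switch of striated muscle and sits on the actin thin filament with tropomyosin. Troponin C binds calcium, troponin I holds back the contact of actin with myosin, and troponin T ties the complex to tropomyosin. Each subunit has separate genes for heart and for slow and fast skeletal muscle fibres, except that Tnnc1 serves both heart and slow muscle. In rodents the fetal heart uses the slow skeletal troponin I, Tnni1, which is replaced by the cardiac form, Tnni3, after birth.

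The libraries held 5468677 reads (MHC403) and 5481123 reads (WT), and levels are given as RPM, which are reads scaled to these totals. An entry counts as measured here if 1 library or both gave it 50 reads or more. All 10 cardiac myocyte markers were measured, with a median log2 ratio of MHC403 over WT of 0.02, against 0.57 over the 9507 measured entries. Their sum was 28678 RPM in MHC403 and 52497 RPM in WT, and the members went both ways, from Myh6 at -1.27 and Myl2 at -1.26 to Nkx2-5 at 1.13 on the log2 scale. Scaling by the median of ratios subtracts 0.55 from each log2 ratio and moves that median of all measured entries near 0. The 5 fibroblast markers summed to 2978 RPM in MHC403 and 447 RPM in WT, and the members differed by unequal amounts. On the log2 scale the collagen genes Col1a1, Col3a1 and Col1a2 were at 4.71, 4.31 and 3.94. Pdgfra was at 1.17 and Dcn at 0.84. The part of either cell type in the troponin ratios was not tested. In pooled tissue, fewer cells of a type and less RNA per cell cannot be told apart.

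Of the 8 troponin genes, 4 were measured and 4 were under the minimum of 50 reads. The measured genes were the 3 cardiac forms and the slow skeletal Tnnt1. With library totals, none of the 4 was at least 2-fold higher in MHC403, against 26.1% of all measured entries, and 1, Tnnt1, was at least 2-fold lower, against 2.43% of all measured entries. Tnnt1 reached the minimum through the WT library alone, where it was the higher, so this count is a description that the minimum itself bears on, and with a minimum of 200 reads none of the 3 genes left was past 2-fold. Tnni3 was 1.72-fold lower, Tnnc1 1.25-fold higher and Tnnt2 1.05-fold higher. With median-of-ratios or TMM scaling Tnni3 also passed 2-fold lower, where 7.59% and 7.55% of all measured entries were, and Tnnt2 and Tnnc1 changed direction. The 3 cardiac genes together had 101440 reads in MHC403 and 103919 in WT, a ratio of 0.978 (0.970 to 0.987), so that their sum took nearly the same part of each library, 1.85% and 1.90%, while the reads shifted among the subunits. The skeletal genes gave 53 reads in MHC403 and 70 in WT, and of these the sum of the slow genes was lower and that of the fast genes higher in MHC403.

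**Figure D1:**
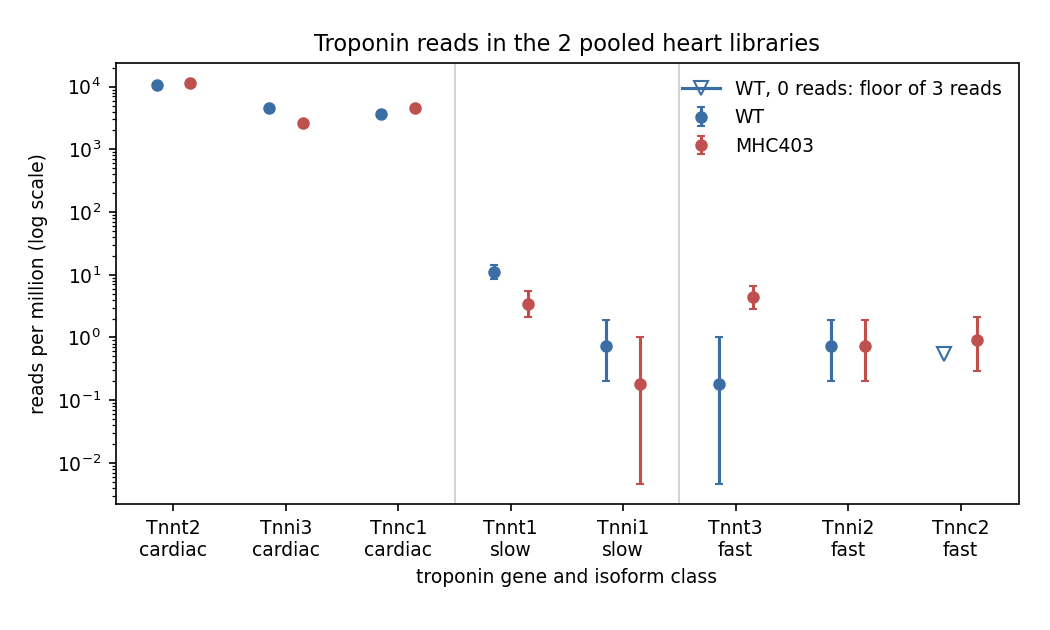
Level in RPM (log axis) of each troponin gene in the WT library (blue) and the MHC403 library (red), ordered by isoform class, with exact 95% Poisson intervals; the open triangle marks a plotting floor of 3 reads where WT had 0 reads of Tnnc2. The 3 cardiac genes lie between 2624 and 11324 RPM, and no skeletal gene is above 11.1 RPM.

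Tnnt2 encodes cardiac troponin T and lies on chromosome 1 (mm9, 137732963 to 137748838, plus strand). It had 61930 reads in MHC403 and 58949 in WT, or 11324 RPM (11235 to 11414) and 10755 RPM (10668 to 10842). The gene made up 1.13% of MHC403 reads and 1.08% of WT reads. The ratio was 1.05 (1.04 to 1.06) with library totals, and below 1 with median-of-ratios scaling, with TMM scaling and with totals that left out mitochondrial entries. Its log2 ratio of 0.07 was higher than that of 22.1% of the measured entries. The table lists 2 annotated starts for Tnnt2, 4475 bases apart, and counts their reads together. The splice forms of troponin T that differ between fetal and adult heart cannot be told apart in these counts.

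Tnni3 encodes cardiac troponin I, the inhibitory subunit that also carries the sites through which beta-adrenergic signals speed relaxation, and lies on chromosome 7 (4469910 to 4474045, minus strand). Tnni3 had 14349 reads in MHC403 and 24724 in WT. Its level was 2624 RPM (2581 to 2667) in MHC403 and 4511 RPM (4455 to 4567) in WT, so the libraries were apart by far more than counting error. Tnni3 was 1.72-fold (1.68 to 1.75) lower in MHC403, a log2 ratio of -0.78, and 3.56% of the measured entries had a lower ratio. Of the 4 measured troponin genes, Tnni3 and Tnnt1 were lower at a 1.5-fold limit and none was higher. Of all measured entries 5.62% were lower and 49.1% higher. Tnnt3, which had 24 reads in MHC403 and 1 in WT, was under the read minimum and is not in this count. With median-of-ratios scaling the log2 ratio of Tnni3 was -1.33 and with TMM scaling -1.33.

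Tnnc1 encodes the calcium-binding subunit of heart and slow muscle and lies on chromosome 14 (32021498 to 32024897, plus strand). It had 25161 reads in MHC403 and 20246 in WT, or 4601 RPM (4544 to 4658) and 3694 RPM (3643 to 3745). Tnnc1 was 1.25-fold (1.22 to 1.27) higher in MHC403 with library totals, at a log2 ratio of 0.32, and lower with median-of-ratios and TMM scaling, at -0.23 for both. Relative to the median of all measured entries, Tnnc1 lay at -0.25, Tnnt2 at -0.49 and Tnni3 at -1.35 on the log2 scale, so all 3 were below it. The median of the 116 entries with at least 10000 summed reads was lower, at -0.23. Among those 116 entries, 86 had a lower ratio than Tnnc1, 66 a lower ratio than Tnnt2 and 27 a lower ratio than Tnni3.

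**Figure D2:**
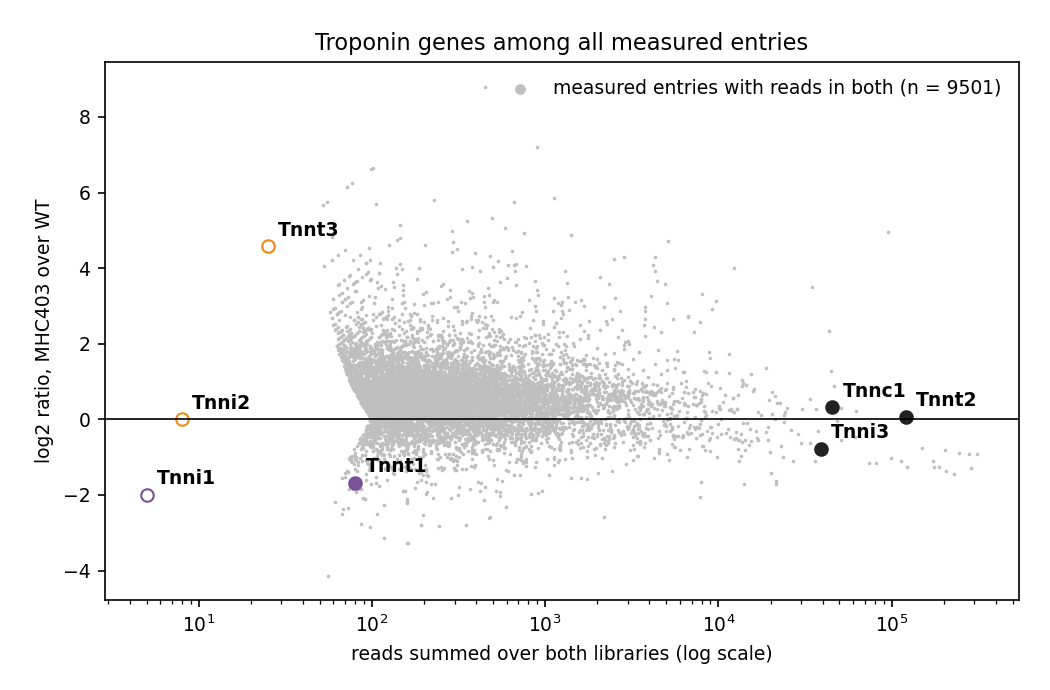
Log2 ratio of MHC403 over WT reads scaled to library totals, against reads summed over both libraries (log axis), for the 9501 measured entries with reads in both libraries (grey) and for the troponin genes (black cardiac, purple slow, orange fast; open symbols are under 50 reads in both libraries). Tnnt2 and Tnnc1 sit just above 0, an order that turns to below 0 with median-of-ratios and TMM scaling, and Tnni3 sits at -0.78 among entries of like depth.

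The ratio between 2 genes of one library does not depend on how the libraries are scaled, so the subunits were also set against each other. In WT there were 0.419 reads of Tnni3 per read of Tnnt2, and in MHC403 there were 0.232, a ratio 1.81-fold (1.77 to 1.85) lower. Tnnc1 had 0.343 reads per read of Tnnt2 in WT and 0.406 in MHC403, 1.18-fold (1.16 to 1.21) higher. Tnnc1 had 0.819 reads per read of Tnni3 in WT and 1.75 in MHC403, 2.14-fold (2.08 to 2.20) higher. The 3 differences between subunits were thus all larger than counting error, and the one between Tnnc1 and Tnni3 was the widest of them. As shares of the 3 cardiac genes, Tnni3 took 23.8% (23.5 to 24.1) of reads in WT and 14.1% (13.9 to 14.4) in MHC403. Tnnc1 took 19.5% (19.2 to 19.7) and 24.8% (24.5 to 25.1), and Tnnt2 56.7% (56.4 to 57.0) and 61.1% (60.8 to 61.4).

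To set levels of different genes side by side, RPM was divided by the length of the 5′ ranges that the table lists for each gene, which span 682 bases for Tnnt2, 325 for Tnni3 and 397 for Tnnc1. The sources used here do not say whether counts were confined to these ranges. The length for Tnnt2 covers 2 annotated starts, and its level per length would be higher if 1 of them were not in use. In an assay whose reads collect near starts, this scale is a rough guide only. On this scale of level per length, WT had 15770 RPM per kilobase of Tnnt2, 13879 of Tnni3 and 9304 of Tnnc1. In MHC403 the levels per length were 16605 for Tnnt2, 11589 for Tnnc1 and 8073 for Tnni3. Tnni3 and Tnnc1 therefore stood in the opposite order in the 2 libraries, both in level per length and in reads.

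**Figure D3:**
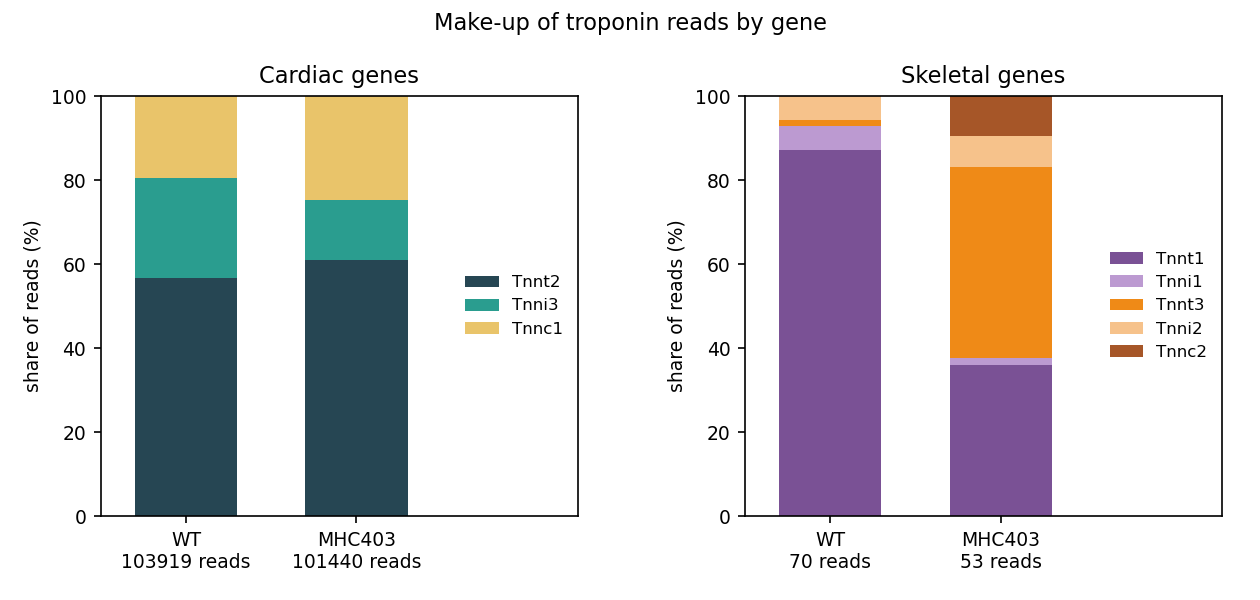
Share of reads (%) that each gene took among the 3 cardiac troponin genes (left) and among the 5 skeletal troponin genes (right) in each library, with the reads behind each bar. Tnni3 takes 23.8% of cardiac troponin reads in WT and 14.1% in MHC403; the skeletal bars rest on 70 and 53 reads, most of them Tnnt1 in WT.

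The promoters of the 3 cardiac genes and of Tnnt1, the measured genes, are shown because the assay reads transcript starts and these genes differed between the libraries by unequal amounts. The sequences are from RefSeq on the GRCm38.p6 build, 250 bases before to 50 after the annotated start, 300 bases each, whereas the read table is on mm9 and the 2 were not matched by position. They are Tnnt2 at chr1:135836084-135836383 (plus strand, the first of 2 listed), Tnni3 at chr7:4522479-4522778 (minus strand), Tnnc1 at chr14:31208062-31208361 (plus strand) and Tnnt1 at chr7:4515926-4516225 (minus strand). The second Tnnt2 promoter listed begins at 135836739, whereas the 2 Tnnt2 starts of the read table are 4475 bases apart. The 2 promoters are thus not those of the 2 counted starts, and only the first is shown and described. Capitals mark CATTCC, the core of the M-CAT element, which TEAD factors bind and which is long known from troponin T promoters. They also mark the motif of GATA factors, searched as AGATAA, and the TATA box, searched as TATAAA. Each was searched on both strands.
Tnnt2: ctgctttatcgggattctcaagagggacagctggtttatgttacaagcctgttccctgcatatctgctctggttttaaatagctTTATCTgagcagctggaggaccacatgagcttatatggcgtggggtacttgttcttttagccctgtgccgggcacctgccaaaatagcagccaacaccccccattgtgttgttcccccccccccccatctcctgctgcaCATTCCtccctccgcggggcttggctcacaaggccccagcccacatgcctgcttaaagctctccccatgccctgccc
Tnni3: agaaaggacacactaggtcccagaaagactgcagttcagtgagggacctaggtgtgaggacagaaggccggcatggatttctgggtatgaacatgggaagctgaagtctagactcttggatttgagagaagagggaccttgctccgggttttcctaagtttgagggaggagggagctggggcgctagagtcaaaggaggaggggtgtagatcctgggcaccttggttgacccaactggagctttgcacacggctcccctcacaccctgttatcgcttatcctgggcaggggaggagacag
Tnnc1: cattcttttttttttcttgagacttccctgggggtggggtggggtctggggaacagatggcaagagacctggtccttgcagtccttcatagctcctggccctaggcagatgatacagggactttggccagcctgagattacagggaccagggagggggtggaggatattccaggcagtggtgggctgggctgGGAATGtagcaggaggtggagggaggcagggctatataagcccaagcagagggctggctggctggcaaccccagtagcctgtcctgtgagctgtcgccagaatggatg
Tnnt1: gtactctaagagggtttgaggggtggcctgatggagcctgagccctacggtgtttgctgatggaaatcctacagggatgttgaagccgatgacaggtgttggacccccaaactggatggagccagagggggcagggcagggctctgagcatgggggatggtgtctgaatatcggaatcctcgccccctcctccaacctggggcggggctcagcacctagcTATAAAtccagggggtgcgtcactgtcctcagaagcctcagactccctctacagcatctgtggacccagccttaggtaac

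Positions in these promoters are counted from the annotated start, with -1 the base before it. The Tnnt2 promoter held CATTCC at -27 and AGATAA, on the reverse strand, at -166. The Tnnc1 promoter held the M-CAT core on the reverse strand at -58, written GGAATG. The Tnni3 promoter held none of the 3 marked motifs, and the Tnnt1 promoter held TATAAA at -30. Exact letters only were searched, so a close form such as tatataag in the Tnnc1 promoter is not marked or counted. Of 32851 promoters of the same length, 14.7% held CATTCC, 13.6% TATAAA and 11.2% AGATAA on either strand. The E-box CANNTG, found in 72.3% of promoters, occurred in each of the 4, 5 times in Tnnt2, 2 times in Tnnc1 and in Tnnt1, and 1 time in Tnni3. The GC box GGGCGG, in 35.7% of promoters, occurred in Tnnt1 and in none of the 3 cardiac genes. The MEF2 motif and the CArG box, searched with A or T at their degenerate places and present in 0.557% and 1.63% of promoters, were in none of the 4. Motifs of different kinds were counted without regard to overlap, and RefSeq promoters were at hand for 6 of the 8 genes.

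The authors' deposited table also gives each gene a start-site score, a whole number for which the sources used here give no formula. In the authors' deposited table Tnnt2 had a score of 44, Tnni3 of 22 and Tnnc1 of 4, and the skeletal genes had 0. Of the 10483 entries with at least 20 reads in both libraries, 34.7% had a score above 0 in the authors' deposited table, and 126 exceeded that of Tnnt2. Of the 116 entries with at least 10000 summed reads, 5 had a higher deposited score than Tnnt2, 14 than Tnni3 and 39 than Tnnc1. Reads per start were not analysed here.

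Among the slow skeletal genes, Tnnt1, the slow troponin T, lies on chromosome 7 (4456265 to 4467577, minus strand). Tnnt1 had 19 reads in MHC403 (11.4 to 29.7, exact Poisson) and 61 in WT (46.7 to 78.4), so the counting intervals of the libraries did not overlap. Its level was 3.47 RPM in MHC403 and 11.1 RPM in WT, 3.20-fold (1.89 to 5.68) lower, at a log2 ratio of -1.68. Against its cardiac counterpart, Tnnt1 per read of Tnnt2 was 3.37-fold (1.99 to 5.98, exact conditional interval) lower in MHC403. Tnni3 lies 2333 bases upstream of it on the same strand and was lower too, and Tnnt1 per read of Tnni3 was still 1.86-fold (1.10 to 3.30) lower.

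Tnni1, the slow and fetal troponin I, lies on chromosome 1 (137695998 to 137707566, plus strand). It had 1 read in MHC403 (0.0253 to 5.57) and 4 in WT (1.09 to 10.2). The ratio of 0.251 had an interval of 0.00509 to 2.53, so no difference was detectable at this depth. Tnni3 made up 99.97% of all troponin I reads in both MHC403 (99.92 to 99.99) and WT (99.94 to 99.99). The upper limit of Tnni1 in MHC403 was 1.02 RPM. This limit covers counting error in 1 pooled library only, not variation between animals, so a return of Tnni1 in MHC403 hearts was not tested. With Tnnt1 the slow genes summed to 20 reads in MHC403 and 65 in WT, 3.24-fold (1.94 to 5.65) lower.

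The fast skeletal troponin T gene, Tnnt3, lies on chromosome 7 (149684741 to 149701914, plus strand). Tnnt3 had 24 reads in MHC403 (15.4 to 35.7) and 1 in WT (0.0253 to 5.57), or 4.39 and 0.182 RPM. The ratio was 24.1 with a counting interval of 3.92 to 989, and the intervals of the 2 libraries did not overlap. An entry on the opposite strand, Gm14492, overlaps the body of Tnnt3 but shares no base of its listed 5′ ranges, and it had 28 reads in MHC403 and 41 in WT. None of the 36-base words of Tnnt3 transcripts occurred in transcripts of another gene of the GENCODE M21 annotation. For Tnnt1, 32 of 2336 such words (1.37%) occurred in transcripts of other genes, on either strand. The part of these shared words in the reads of Tnnt1 was not tested.

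Tnni2, the fast troponin I (chromosome 7, 149628374 to 149630310, plus strand), had 4 reads in each library, and its ratio of 1.002 had an interval of 0.187 to 5.38. Tnnc2, the fast troponin C (chromosome 2, 164602662 to 164605234, minus strand), had 5 reads in MHC403 (1.62 to 11.7) and 0 in WT, a count whose interval reaches 3.69 reads or 0.673 RPM. The interval of its ratio started at 0.918 and includes 1, so no difference was detectable at this depth. In the GENCODE annotation 56.2% of the 36-base words of Tnnc2 lie on the reverse strand of Ube2c transcripts, and the sources used here do not say whether counting used the strand. Ube2c itself had 28 reads in MHC403 and 3 in WT, though as an entry it lies 4260 bases from Tnnc2 and does not overlap it. The 5 reads of Tnnc2 are therefore uncertain, and the part of Ube2c in them was not tested.

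**Figure D4:**
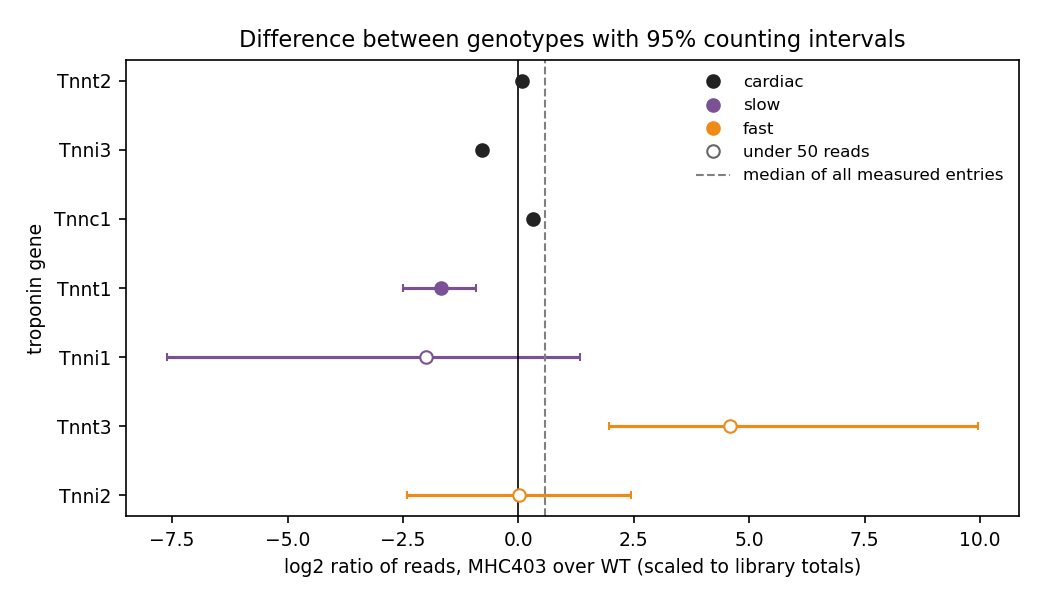
Log2 ratio of MHC403 over WT reads, scaled to library totals, for the 7 troponin genes with reads in both libraries, with exact 95% counting intervals (filled symbols are measured, open symbols under 50 reads). The solid line is equality and the dashed line the median of all measured entries, 0.57; the intervals of Tnnt1 and Tnnt3 lie on opposite sides of 0, whereas Tnnt2 and Tnnc1 move below 0 with median-of-ratios and TMM scaling.

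Skeletal forms as a whole made up 0.0522% (0.0391 to 0.0683) of troponin reads in MHC403 and 0.0673% (0.0525 to 0.0850) in WT. The odds of a skeletal read were 0.776 (0.532 to 1.12) times those in WT, an interval that includes 1. The slow share was 0.0197% in MHC403 and 0.0625% in WT, and the fast share 0.0325% and 0.00481%. The fast genes summed to 33 reads in MHC403 and 5 in WT, 6.62-fold (2.57 to 21.7) higher, but without Tnnt3 to 9 and 4, 2.26-fold (0.629 to 10.02), which includes 1. There were 1.65 fast reads per slow read in MHC403 and 0.0769 in WT, and the conditional maximum-likelihood estimate of their ratio, which is below the plain quotient at such counts, was 20.8 (6.87 to 77.4). Tnnt3 had 1.26 reads per read of Tnnt1 in MHC403 and 0.0164 in WT, with a conditional estimate of 73.6 (10.7 to 3218). Tnnt1 made up 87.1% (77.0 to 93.9) of the skeletal troponin reads in WT and 35.8% (23.1 to 50.2) in MHC403, and Tnnt3 1.43% (0.0362 to 7.70) and 45.3% (31.6 to 59.6).

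Reads of other skeletal muscle genes did not move in 1 direction. Of 18 markers of skeletal muscle, 6 were at 0 in both libraries, among them the myogenic factors Myod1 and Myog and the calcium release channel Ryr1. The list summed to 144 RPM in MHC403 and 199 RPM in WT, and its 6 measured members split into 2 past 2-fold higher and 4 past 2-fold lower, against 26.1% and 2.43% of all measured entries. Casq1 and Atp2a1 among the 6 reached the minimum in 1 library only. The genes of this list were named after their values were seen. The 3 myosin heavy chains of the list had 284 reads in MHC403 and 862 in WT. The listed span of Myh2 holds those of Myh1 and Myh4, so the 3 entries may not be independent. These chains also resemble the abundant cardiac chains, and the part of shared reads in their counts was not tested. The fast myosin-binding protein Mybpc2 had 324 and 107 reads and the calcium-storage protein Casq1 had 106 and 22, whereas the other 13 genes summed to 72 and 102. Mylpf, the fast regulatory light chain, had 3 reads in each library. The part of skeletal muscle RNA in the fast and slow troponin reads was not tested.

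Genes listed as thin filament partners of troponin differed in both directions. These are counts per entry in whole hearts, and which cell types or splice forms gave the reads, those of the tropomyosins included, was not tested. Of 13 genes 12 were measured, 4 were at least 2-fold higher in MHC403, 2 lower and 6 within 2-fold, with a median log2 ratio of 0.37. Among all measured entries 26.1% were higher and 2.43% lower. Tropomyosin alpha-1, Tpm1, which troponin T binds, had 33305 reads in MHC403 and 28631 in WT, 1.17-fold (1.15 to 1.18) higher with library totals and lower with median-of-ratios scaling. Cardiac actin, Actc1, was 1.85-fold (1.81 to 1.88) higher, with 30038 and 16307 reads. The pointed-end protein Lmod2 was 1.15-fold (1.09 to 1.20) higher with library totals and lower with median-of-ratios scaling. The 4 higher genes were skeletal alpha-actin, Acta1 (9.54-fold, 8.59 to 10.6), and the tropomyosins Tpm2 (2.12-fold, 1.68 to 2.69), Tpm3 (3.27-fold, 2.72 to 3.95) and Tpm4 (2.52-fold, 2.06 to 3.12). The 2 lower were Lmod3 (2.09-fold, 1.78 to 2.45) and Tmod4 (2.18-fold, 1.51 to 3.19). Tmod4, with 44 reads in MHC403 and 96 in WT, reached the minimum through the WT library alone, where it was the higher. The minimum itself therefore bears on the count of lower genes. Apart from Acta1 the genes past 2-fold were named after their values were seen. With median-of-ratios scaling Tpm2 and Tpm4 were within 2-fold, and the list held 2 genes past 2-fold higher and 2 lower, against 10.9% and 7.59% of all measured entries under that scaling.

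**Figure D5:**
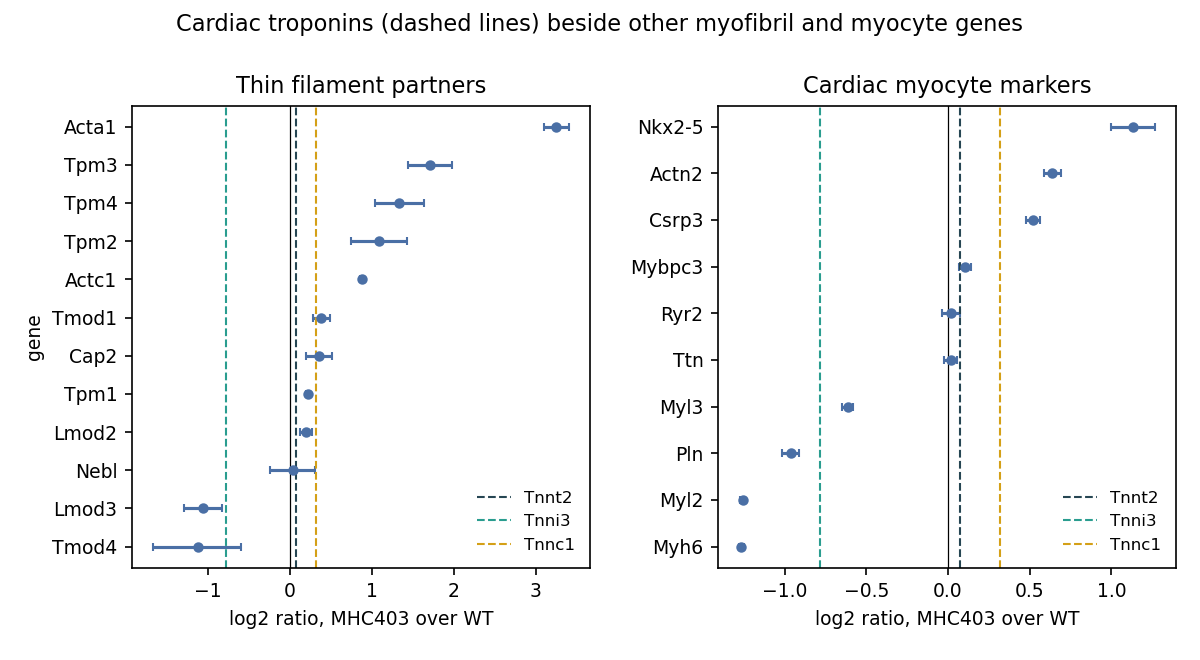
Log2 ratio of MHC403 over WT reads, scaled to library totals, with exact 95% counting intervals, for measured thin filament partners (left) and cardiac myocyte markers (right); dashed lines mark the 3 cardiac troponins. Tnni3 at -0.78 lies lower than 10 of the 12 partners, and Tnnt2 at 0.07 and Tnnc1 at 0.32, which both turn negative with median-of-ratios and TMM scaling, lie among them. Of the myocyte markers, Myh6 (-1.27), Myl2 (-1.26) and Pln (-0.96) lie lower than Tnni3 and the others higher.

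Of 11 genes for enzymes that act on troponin, 9 were measured. Of these, 8 differed by less than 2-fold, as did 71.5% of all measured entries. The list median of the log2 ratio was 0.26, and no member was 2-fold lower. Tnni3k, a cardiac kinase named for its binding to troponin I, had 132 reads in MHC403 and 245 in WT, 1.85-fold (1.49 to 2.31) lower, and past 2-fold lower with median-of-ratios scaling. Prkaca, the catalytic subunit of protein kinase A, had 1015 and 1089 reads, with library totals a ratio of 0.934 (0.857 to 1.02) that includes 1. Its log2 ratio was -0.10 with library totals and lower, at -0.65, with median-of-ratios scaling. The phosphatase subunit Ppp2ca was 1.80-fold (1.61 to 2.00) higher and Ppp1cb 1.20-fold (1.09 to 1.32) higher with library totals, and Ppp1cb was lower with median-of-ratios scaling. The 1 higher gene, named after its values were seen, was the kinase Prkcd at 3.68-fold (2.70 to 5.10).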

How the data were processed

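Hearts of WT and MHC403/+ mice, pooled to 1 library each, were measured by 5′RNA-seq. The submitters' processing notes name TopHat 1.0.14 and mm9; the sources used here give neither the counting program nor its use of strand. The authors deposited, per the file headers, counts of reads per entry without normalization, RPM values (recomputed within 4.94e-06), a fold as the ratio of RPM, a p-value of unstated test and a start-site score. The deposited p-values and fold were not used. Deposited starts were read as 0-based and are printed 1-based: 4829 entries matched a GENCODE transcript length that way and 639 otherwise.

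Counts were scaled to library totals. Ratios carry exact (Clopper-Pearson) 95% intervals conditional on the summed reads; ratios between genes carry exact conditional intervals, or log-normal ones where every count was above 1000. Shares carry exact binomial intervals. The exact conditional intervals go with conditional maximum-likelihood estimates. A count of 0 was drawn at a floor of 3. These cover counting error only. Scripts used Python 3.11.15, scipy 1.17.1 and edgeR 4.0.16 (TMM factors only) and were tested on simulated data. The 8 genes and all lists were chosen with earlier results of these data known. From the lists of partners, enzymes and promoter factors the 4 genes with most reads are named; the other named genes of all lists, and the neighbouring entries, were chosen after their values were seen. The named entries most like each cardiac gene have the nearest log2 ratio among entries within 2-fold of its reads. Promoters were taken from RefSeq.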

Additional observations from a re-analysis of the deposited data

How the results depend on the processing

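The summed cardiac log2 ratio of -0.03 was -0.58 with median-of-ratios scaling, -0.58 with TMM scaling, -0.32 with totals without mitochondrial entries and -0.13 with Tnnc1 placed among the slow genes. The slow sum of -1.70 stayed within its counting interval under the 3 scalings and became 0.31 with Tnnc1 added, since Tnnc1 then supplies nearly all reads. The fast sum of 2.73 stayed within its interval under the 3 scalings and was 1.17 without Tnnt3, a choice made after the data were seen. With median-of-ratios, TMM and mitochondria-free scaling the log2 ratio of Tnnt2 turned to -0.47, -0.47 and -0.22, and with the first 2 that of Tnnc1 turned to -0.23 and -0.23, because each lowers all ratios by one constant. The skeletal odds ratio of 0.776 was 0.315 for the slow genes only, 6.76 for the fast only and 0.431 without Tnnt3. The count of lower genes, 1 of 4, was 2 of 4 under each of the 3 scalings (7.59%, 7.55% and 4.21% of all entries) and at 1.5-fold (5.62%), 0 of 3 with at least 200 reads (2.501%) and 2 of 8 with at least 1 read (9.31%). The count of higher genes, 0 of 4, was 1 of 5 with at least 20 reads (Tnnt3, against 27.5% of all entries) and 2 of 8 with at least 1 read (Tnnt3, and Tnnc2 by its 0 in WT, against 33.0%), so neither share was above that of all entries. No paired analysis was possible because each genotype has 1 library, and no library could be left out. Depth limits the 4 genes under 50 reads most.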

Other observations

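The 8 troponin genes include 3 pairs of a troponin T and a troponin I gene on the same strand of 1 chromosome. Tnnt2 and Tnni1 are 25397 bases apart on chromosome 1, Tnni3 and Tnnt1 2333 bases apart on chromosome 7, and Tnnt3 and Tnni2 54431 bases apart on chromosome 7. In the first pair the cardiac gene had 61930 reads in MHC403 and its neighbour 1. In the second both genes were lower in MHC403, by 1.72-fold and 3.20-fold. In the third Tnnt3 had 24 reads against 1 in WT, while Tnni2 had 4 in each library. The nearest listed entries on each side of the 8 genes, other than troponin genes, were named after their values were seen. Of these 12 entries 9 had reads in both libraries, and 8 of the 9 had a ratio of MHC403 over WT above 1. A ratio above 1 was common, since 19.6% of all measured entries had a lower ratio than Tnni2 at 1.002. The median log2 ratio over all measured entries was 0.57. Next to Tnnt1, Ppp1r12c was 2.34-fold (1.93 to 2.84) higher in MHC403, and 514 bases from Tnni3 the entry 6030429G01Rik had 21 reads in MHC403 and 27 in WT, a ratio of 0.780 (0.419 to 1.43) that includes 1. On either side of Tnnc1, mKIAA0975 was 1.95-fold (1.55 to 2.47) and Sema3g 1.72-fold (1.27 to 2.36) higher. Lsp1, between Tnni2 and Tnnt3, was 2.92-fold (2.41 to 3.55) higher, and Mrpl23, on the other side of Tnnt3, had a ratio of 1.09 (0.899 to 1.31) that includes 1. Lad1, between Tnni1 and Tnnt2, was 1.87-fold (1.33 to 2.66) higher, and Ube2c and Snx21, beside Tnnc2, were 9.35-fold (2.89 to 48.1) and 1.93-fold (1.54 to 2.42) higher. With median-of-ratios scaling, which moves the median log2 ratio of all measured entries near 0, 7 of the 9 ratios were above 1. Mrpl23 was the one that turned below it. The log2 ratio of 6030429G01Rik, -0.36 with library totals, was -0.91 with this scaling.

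The entries whose log2 ratio over these 2 libraries was nearest to that of Tnni3, among 39 within 2-fold of its reads, were lipoprotein lipase, Lpl (-0.70), muscle creatine kinase, Ckm (-0.86), and the ATP synthase subunit e, Atp5k (-0.63). For Tnnt2, with 16 such entries, they were Tpm1 (0.22), myoglobin, Mb (-0.42), and the noncoding Malat1 (-0.46), so that Tpm1 was the nearest, at a difference of 0.15. For Tnnc1, with 29 such entries, they were the initiation factor Eif1 (0.30), Gm6900 (0.29) and an aldolase A entry listed as Aldoachr7- (0.28).

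The list of 10 factors whose motifs were searched in promoters had 9 measured members and a median log2 ratio of 0.64, against 0.57 over all measured entries. Serum response factor, Srf, was the only one of the 9 past 2-fold, at 2.53-fold (2.26 to 2.85) higher in MHC403 (26.1% of all measured entries were past 2-fold higher), and it was within 2-fold with median-of-ratios scaling. With library totals Mef2d was 1.74-fold (1.55 to 1.96) and Gata4 1.56-fold (1.36 to 1.79) higher, and Tead1 had a ratio of 1.12 (0.993 to 1.27) that includes 1. With median-of-ratios scaling their log2 ratios were 0.25 for Mef2d, 0.09 for Gata4 and -0.38 for Tead1, so that Tead1 changed direction.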
